A study of Mus musculus with 15 samples.

Results

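Cell cycle and DNA replication genes were examined as a group of 42 named genes, matched by gene symbol in every table that listed them. They were 42 of the 28269 genes listed in any table of a mouse RNA sequencing study of the uterine epithelium, whose title names overactivated Notch1 signalling as its subject. All libraries came from luminal epithelium (LE), the sheet that lines the uterine cavity, or glandular epithelium (GE), the lining of the uterine glands, and the labels give the time of every sample as day 4. Each of the 5 groups held 3 libraries: wild-type LE, wild-type GE, and Notch1-overexpressing LE and GE named E-OEX in the titles, and another kind of Notch1-overexpressing LE named U-OEx. The titles do not define E-OEX and U-OEx, which are used here as names only, and the driver of the Notch1 transgene is not given in the sources used here. No U-OEx GE library was among the samples, and the labels do not say whether replicates came from separate animals, so p-values measure the spread between these libraries, which may be technical.

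The tables did not list the same genes, and this set what could be compared. All 42 genes were among the 27946 genes of the U-OEx tables. The wild-type tables listed 20 of them among 6414 genes, and the E-OEX tables listed 4 (Ccnf, Cenpa, Kif23 and Tyms) among 4903 genes. All of those 4 except Kif23 were also in the wild-type tables, and 21 genes were in the U-OEx tables alone. No listed gene had an absolute log2 ratio between the GE and LE means under 0.998, and 1 E-OEX gene lay under 1, so both lists hold genes that differed between the epithelia. Among genes with a mean of at least 100 scaled reads in U-OEx LE, the wild-type tables listed 20 of 41 cell cycle genes (48.8%) and 23.9% of all 10994 genes, and the E-OEX tables listed 4 of 41 (9.76%) and 14.1% of all genes. A gene that a table does not list was not analysed there and was never read as 0.

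The cell cycle is driven by cyclins, which rise and fall and switch on cyclin-dependent kinases. D- and E-type cyclins and the E2F factors open S phase, licensing factors load the Mcm helicase on DNA before it is copied, and A- and B-type cyclins with Cdk1 drive mitosis, where kinases, kinetochore proteins and spindle motors separate the chromosomes. In the mouse uterus the luminal epithelium proliferates under oestrogen, and progesterone stops that proliferation before the embryo attaches.

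Many cell cycle promoters share short elements, and the promoters of 7 genes the results turn on are shown for that reason. CHR elements, searched as TTTGAA and in the variant form TTCGAA, and boxes of the letters CCAAT are known in promoters active in G2 and mitosis. E2F sites are known in promoters active at S phase entry. They were searched in the form TTTGGCG, in the form TTTCCCG, in the form TTTCGCG and in the form TTTGCCG. Each line gives a stretch of 170 bases upstream of the gene that no annotated exon covers, 5′ to 3′ on the strand of the gene, from RefSeq on GRCm38.p6. Capitals mark CHR, CCAAT and E2F letters on either strand. The stretches are chr7:135716380-135716549 for Mki67, chr9:70421555-70421724 for Ccnb2, chr4:118437353-118437522 for Cdc20, chr10:69352939-69353108 for Cdk1, chr17:24251485-24251654 for Ccnf and chr5:30073626-30073795 for Tyms, all on the minus strand, and chr8:75109339-75109508 for Mcm5 on the plus strand.
Mki67: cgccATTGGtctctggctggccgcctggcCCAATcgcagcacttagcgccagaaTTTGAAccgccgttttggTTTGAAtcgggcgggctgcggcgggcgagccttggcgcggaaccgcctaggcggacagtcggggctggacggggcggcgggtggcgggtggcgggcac
Ccnb2: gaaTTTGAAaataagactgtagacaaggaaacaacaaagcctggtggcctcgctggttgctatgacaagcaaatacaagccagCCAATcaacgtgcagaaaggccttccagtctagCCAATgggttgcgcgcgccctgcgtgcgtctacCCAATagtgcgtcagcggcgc
Cdc20: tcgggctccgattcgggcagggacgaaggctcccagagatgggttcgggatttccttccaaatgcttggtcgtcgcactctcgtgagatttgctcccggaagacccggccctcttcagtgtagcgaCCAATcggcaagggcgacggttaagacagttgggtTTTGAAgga
Cdk1: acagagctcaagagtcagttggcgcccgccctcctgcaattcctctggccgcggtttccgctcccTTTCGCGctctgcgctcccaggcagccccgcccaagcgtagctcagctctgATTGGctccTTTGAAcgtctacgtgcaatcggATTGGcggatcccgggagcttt
Ccnf: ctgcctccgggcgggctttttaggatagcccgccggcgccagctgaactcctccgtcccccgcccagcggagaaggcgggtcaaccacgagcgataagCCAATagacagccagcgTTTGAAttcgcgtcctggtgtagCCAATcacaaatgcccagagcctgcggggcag
Mcm5: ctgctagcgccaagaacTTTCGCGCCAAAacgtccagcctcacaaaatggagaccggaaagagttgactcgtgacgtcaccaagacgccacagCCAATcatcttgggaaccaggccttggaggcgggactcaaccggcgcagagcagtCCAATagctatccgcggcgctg
Tyms: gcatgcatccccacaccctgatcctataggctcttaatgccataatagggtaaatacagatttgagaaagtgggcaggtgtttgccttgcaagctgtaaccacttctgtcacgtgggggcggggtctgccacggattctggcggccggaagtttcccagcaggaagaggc
In Mcm5 the capitals TTTCGCGCCAAA are overlapping E2F letters on opposite strands.

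The promoter table matched 33 of the 42 genes, and the search covered the 250 bases before each start on both strands. CCAAT was found for 26 of the 33 genes (78.8%), against 37.5% of all 27025 genes in the table. A CHR was found for 13 genes (39.4%, against 19.6%), and all 13 also held CCAAT, a combination found for 7.93% of all genes. An E2F site was found for 7 genes (21.2%, against 6.34%). Of 20 genes with mitotic roles, 10 held a CHR, 18 held CCAAT and 3 held an E2F site. Of 13 genes of S phase entry, licensing and DNA synthesis, 3 held a CHR, 8 held CCAAT and 4 held an E2F site. Ccne1, Cdt1, E2f1 and Tyms held none of these letters in the window. These are matches of letters and not measured binding sites.

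Values are scaled reads, that is, read counts divided by 1 factor per library, rounded here to whole numbers. Reads in listed genes came to 3818041 to 4797424 per wild-type library and 1980800 to 3494859 per E-OEX library, both over selected lists, and to 13541644 to 14981505 per U-OEx library. Notch1, the overexpressed gene, was listed in the U-OEx tables only, at 2913, 3524 and 2789 scaled reads, so its overexpression could not be checked against wild type. Luminal and glandular markers were each higher in the epithelium of that name. The 4 listed luminal markers of 6 summed to 31498 to 57877 in wild-type LE and 402 to 849 in wild-type GE, and the 8 glandular markers of 8 to 49.7 to 102 and 31844 to 54923. The 6 of 8 glandular markers listed for E-OEX summed to 5873 to 8610 in E-OEX GE and 215 to 1321 in E-OEX LE, where Spink1 was at 0 in all 3 libraries. In U-OEx LE 7 of 8 were listed and summed to 1040 to 1440, with Spink1, Ttr and Prss29 at 0 in all 3 libraries. Luminal markers summed to 13135 to 17640 in E-OEX LE (4 of 6 listed) and 13974 to 18950 in U-OEx LE (6 of 6). Both lay below wild-type LE. Epithelial markers summed to 90741 to 97803 in wild-type LE and 28309 to 29738 in wild-type GE (5 of 8 listed). They summed to 41067 to 60171 in E-OEX LE and 20495 to 28910 in E-OEX GE (4 of 8). In U-OEx LE they came to 57411 to 77301 (8 of 8). In GE the stromal sums, given below, were higher than the epithelial sums.

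U-OEx LE was set against wild-type LE to ask how these genes differed when Notch1 was overexpressed. Of the 20 genes that could be tested, 19 were higher in U-OEx LE and none was lower. Their log2 fold changes ran from 3.79 for Mcm5 to 7.55 for Aurkb, and the exception was Tyms. The median over the 20 genes was 5.46, against 0.09 over all 5950 genes tested. Limma called 56.9% of all genes tested in this comparison and 29.1% as higher, with 27.8% as lower. The same 19 genes had U-OEx LE values that lay wholly above the wild-type LE values, as did 32.7% of all genes tested. Genes could be tested here only if the wild-type tables listed them, which selected them for a GE and LE difference. All 19 were higher in wild-type GE than in wild-type LE, so the reference was their lower group through that selection. All genes tested include genes selected as higher in wild-type LE, so their median and shares are not a like background. The adjusted p values are not independent of the selection.

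Of the 4 genes of G1 and S phase entry, Ccne1 and E2f1 could be compared with wild type, and both were higher in U-OEx LE. Ccne1, which encodes cyclin E1, the partner of Cdk2 at S phase entry, had 2, 11 and 9 scaled reads in wild-type LE and 163, 255 and 269 in U-OEx LE. E2f1, a transcription factor that switches on S phase genes, had 9, 20 and 15 and then 299, 415 and 289. All 3 U-OEx LE libraries exceeded all 3 wild-type LE libraries for both genes. The log2 fold change was 4.95 for Ccne1 (SE 0.56, limma adjusted p = 0.000184) and 4.43 for E2f1 (SE 0.38, limma adjusted p = 4.80e-05).

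Of the licensing and DNA synthesis genes, 3 could be compared with wild type and 2 were higher. Mcm5, a subunit of the helicase that opens the DNA for copying, had 68, 103 and 67 scaled reads in wild-type LE and 1030, 1420 and 933 in U-OEx LE. Rrm2, a subunit of the reductase that makes deoxyribonucleotides, had 22, 22 and 47 and then 620, 675 and 603. The groups were far apart for both, with log2 fold changes of 3.79 (SE 0.29) and 4.42 (SE 0.36), at limma adjusted p = 2.81e-05 and 3.98e-05.

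Tyms, which encodes the enzyme that makes the thymine nucleotide for DNA, did not follow the other genes. It had 1042, 529 and 1148 scaled reads in wild-type LE and 698, 830 and 777 in U-OEx LE. The U-OEx LE values lay inside the range of wild-type LE, whose library 2 was the lowest of the 6. The log2 difference was -0.19 (95% interval -0.97 to 0.60, limma adjusted p = 0.661). Without wild-type LE library 2 it was -0.57 and passed the test (limma adjusted p = 0.0432), and without wild-type LE library 1 it was 0.019. The group means were 906 ± 331 scaled reads in wild-type LE and 768 ± 66.2 in U-OEx LE (SD, n = 3).

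The 6 tested mitotic cyclins and Cdk1 regulators were all higher in U-OEx LE, by log2 5.13 to 6.12. Ccnb1, cyclin B1, the main partner of Cdk1 in mitosis, had 10, 9 and 7 scaled reads in wild-type LE and 634, 770 and 637 in U-OEx LE. Cdk1 itself, the kinase that starts mitosis, had 33, 31 and 20 and then 892, 1114 and 1174. Ccna2, cyclin A2, which acts in S phase and G2, had 9, 22 and 21 and then 792, 855 and 693. The groups lay far apart in every library for these 3 genes, and their limma adjusted p ran from 9.77e-06 to 1.63e-05.

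Ccnb2, cyclin B2, had 36, 20 and 6 scaled reads in wild-type LE and 586, 730 and 555 in U-OEx LE. Its wild-type values were the more scattered, and its log2 fold change of 5.13 had the largest SE of the 20 genes, 0.63 (limma adjusted p = 0.000262). Cdc20, the activator of the ligase that ends mitosis, had 33, 25 and 12 and then 897, 1190 and 932. Ccnf, cyclin F, a subunit of a ubiquitin ligase, had 3, 15 and 10 and then 439, 633 and 460. Both rose in every library, by log2 5.44 (SE 0.42) for Cdc20 and 5.79 (SE 0.51) for Ccnf.

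Aurkb and Bub1, of the mitotic kinase and checkpoint genes, had the highest fold changes of the genes tested. Aurkb, the kinase of the chromosomal passenger complex, had 6, 2 and 1 scaled reads in wild-type LE and 630, 810 and 628 in U-OEx LE. Bub1, a checkpoint kinase at the kinetochore, had 6, 3 and 6 and then 498, 586 and 559. Both genes had 1 to 6 scaled reads in wild-type LE and at least 498 in every U-OEx LE library. The log2 fold change was 7.55 for Aurkb (SE 0.54, limma adjusted p = 2.07e-05) and 6.54 for Bub1 (SE 0.39, limma adjusted p = 1.21e-05). Birc5, survivin, a partner of Aurkb in that complex, had 9, 16 and 9 and then 514, 581 and 542. Bub1b, which encodes the checkpoint protein BubR1, had 56, 20 and 22 and then 823, 1010 and 862, with wild-type library 1 well above the other two. Birc5 rose by log2 5.47 and Bub1b by 4.85.

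Kinetochore, spindle and chromosome genes showed the same pattern. Cenpa, the histone variant that marks centromeres, had 22, 40 and 28 scaled reads in wild-type LE and 1226, 1737 and 1657 in U-OEx LE. Cenpf, a kinetochore protein of G2 and mitosis, had 12, 13 and 11 and then 946, 1348 and 1106. Cenpf had the smallest adjusted p of the 20 genes (log2 fold change 6.38, SE 0.30, limma adjusted p = 5.55e-06), and Cenpa rose by log2 5.65.

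Tpx2, a spindle assembly factor that activates Aurora A, had 19, 18 and 16 scaled reads in wild-type LE and 834, 958 and 794 in U-OEx LE. Prc1, which bundles microtubules in the spindle midzone, had 45, 62 and 47 and then 901, 1169 and 1008. Mki67, whose product Ki-67 coats mitotic chromosomes and is used as a proliferation marker, had 73, 41 and 38 and then 3248, 3961 and 4158. The Mki67 means were 50.5 ± 19.1 scaled reads in wild-type LE and 3789 ± 479 in U-OEx LE (SD, n = 3). Its log2 fold change was 6.23 (SE 0.34, limma adjusted p = 9.07e-06), with 5.52 for Tpx2 and 4.28 for Prc1.

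**Figure D1:**
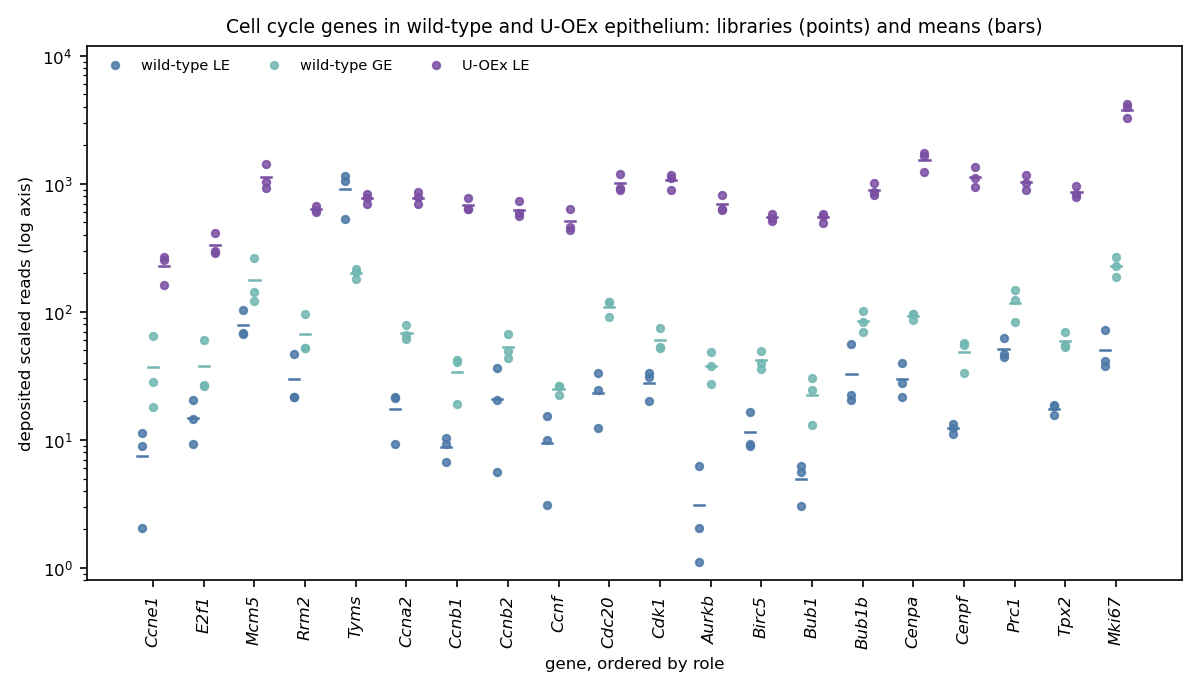
Deposited scaled reads (log axis) of the 20 cell cycle genes listed in wild-type tables, in 3 libraries each of wild-type LE, wild-type GE and U-OEx LE (points, with the mean as a bar). For 19 genes U-OEx LE is highest and wild-type LE lowest, and for Tyms wild-type GE is lowest, at 181 to 215.

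The call of 19 genes was the same under all 9 other settings tried, and leaving out single libraries gave 19 or 20. In these bulk samples, more cells of a type and more RNA per cell cannot be told apart. Leukocyte markers summed to 3971 to 7810 in U-OEx LE over 6 listed of 7, and to 776 to 1400 in wild-type LE over 3 listed of 7. Stromal markers summed to 682 to 2675 in U-OEx LE (9 of 9 listed) and to 369 to 7720 in wild-type LE (7 of 9). In U-OEx LE the leukocyte sum was lowest in library 2, the library in which 32 of the 42 cell cycle genes were highest. The part of leukocyte RNA in the differences was not tested.

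The remaining 22 genes had no wild-type value, so their levels in U-OEx LE are given as a description. Per kilobase of exon, the median of all 42 genes was 201 scaled reads, against 33.1 for the 22656 genes with a length and a mean of at least 1, and 40 of the 42 lay above that all-gene median. Pcna, the sliding clamp of DNA polymerases, was the highest at 752 ± 117 scaled reads per kilobase (SD, n = 3), from 1830, 2074 and 1513 scaled reads per gene. Cdc20 followed at 539 ± 85.7, and the next 5 (Ccnb2, Plk1, Mcm6, Top2a and Mki67) lay between 377 and 408, closer to each other than their SDs of 34.4 to 108.

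The Mcm2 to Mcm7 subunits of the replicative helicase were all among the 42 genes. Mcm2, Mcm3, Mcm4, Mcm5, Mcm6 and Mcm7 lay between 225 (Mcm2) and 389 (Mcm6) scaled reads per kilobase. The loading factors Cdt1 and Cdc6 were at 221 ± 35.6 and 73.5 ± 7.27, and Cdc45, which joins the helicase when origins fire, was at 81.6 ± 12.5. In scaled reads per gene Mcm6 had 1939, 2247 and 1262 and Mcm4 1099, 1258 and 718, with library 3 lowest for both. Library 3 was the lowest for 6 of the 9 licensing genes and library 2 the highest for 8.

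Among mitotic genes, Plk1, the polo kinase of mitotic entry, had 717, 966 and 977 scaled reads, and Top2a, the topoisomerase that untangles chromosomes, had 3216, 3774 and 3260. Ube2c, the conjugating enzyme that works with Cdc20, had 847, 942 and 948. Foxm1, the transcription factor of the G2 and mitosis genes, had 880, 1145 and 1081. Library 1 was the lowest for all 4 of these genes. Aurka, the spindle pole kinase, had 326, 427 and 349, with library 2 the highest. The kinetochore motor Cenpe had 720, 768 and 823, the cytokinesis motor Kif20a 455, 552 and 452, and the spindle protein Nusap1 462, 497 and 378.

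Kif11 and Ccnd1 varied most between the U-OEx LE libraries. Kif11, the motor that pushes the spindle poles apart, had 157, 88 and 38 scaled reads, or 12.7 per kilobase, the lowest of the 42. Its coefficient of variation was 63.1%. Ccnd1, cyclin D1, which acts in G1, had 722, 2327 and 709, so its mean rested on library 2 and its coefficient of variation was 74.3%, against a median of 14.2% over the 42 genes. Cdc25c, the phosphatase that activates Cdk1, had 122, 182 and 176, or 32.5 per kilobase, just under the all-gene median. Ccne2, cyclin E2, lay at 53.3 per kilobase from 164, 190 and 206 scaled reads. Cdc6 had 353, 427 and 374 scaled reads per gene, and Cdc45 had 254, 336 and 269.

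**Figure D2:**
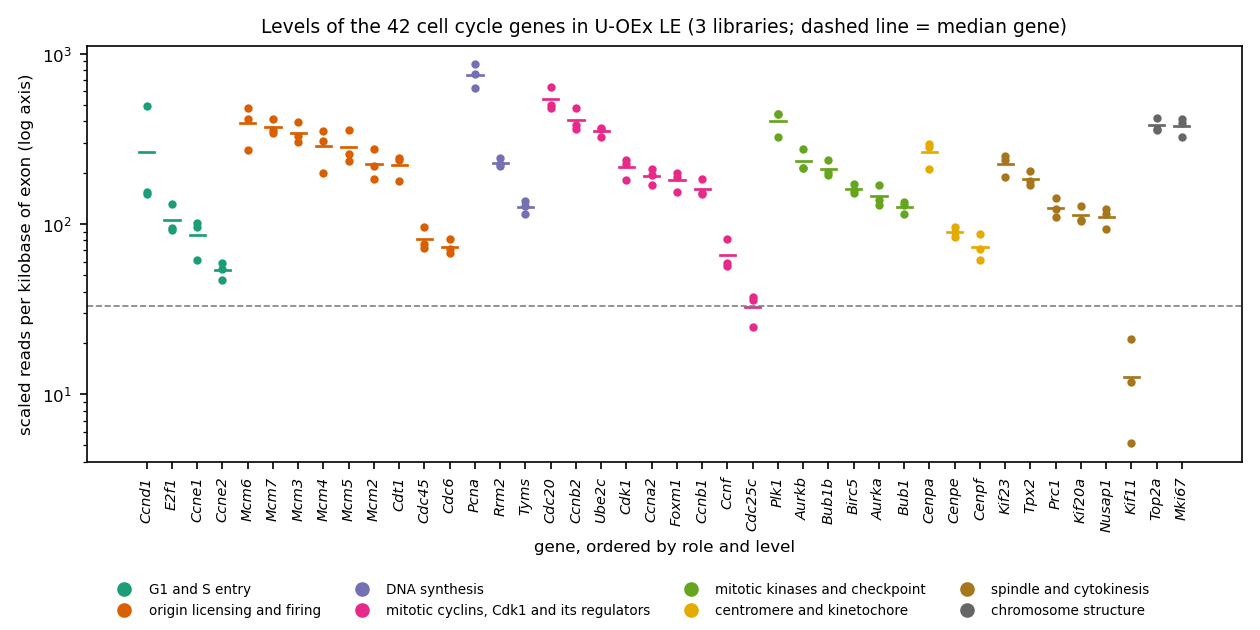
Scaled reads per kilobase of exon (log axis) of the 42 genes in the 3 U-OEx LE libraries (points, mean as a bar), coloured by role and ordered by level within each role. The dashed line is the median gene at 33.1, and Kif11 (12.7) and Cdc25c (32.5) have means below it.

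Counting was not stated to use strand, so reads of overlapping genes cannot be told apart. Exons of 15 of the 42 genes shared bases with another gene, and for 7 the share exceeded 10% of the exon length. The largest shares were 29.3% for Kif20a (with Cdc23), 23.4% for Ccnd1 (with LTO1) and 22.8% for Ube2c (with Tnnc2). Among genes tested against wild type, the share was 12.5% for Ccna2 (with Exosc9) and 11.1% for Prc1 (with Rccd1).

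In wild-type uterus, GE was compared with LE over genes that had been selected for that difference, so the counts describe the selection and only the direction varies. Of the 20 listed genes, 19 were higher in GE and Tyms was lower, and the 3 GE values did not overlap the 3 LE values for any of them. Limma called 97.0% of all 6414 genes with 56.6% higher and 40.5% lower in GE, and 95.9% of all genes did not overlap. The median log2 fold change of the 20 genes was 1.67, against 1.36 over all genes. Mki67 had 73, 41 and 38 scaled reads in LE and 229, 268 and 189 in GE, Cdc20 had 33, 25 and 12 and then 120, 91 and 119, and Aurkb had 6, 2 and 1 and then 27, 48 and 38. Every GE library was above every LE library for these 3 genes.

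The log2 difference was 2.20 for Mki67 (SE 0.34, limma adjusted p = 0.000861), 2.28 for Cdc20 (SE 0.43, adjusted p = 0.00203) and 3.40 for Aurkb (SE 0.56, adjusted p = 0.00115). The lowest was 1.08 for Mcm5, from 68, 103 and 67 to 143, 265 and 121 scaled reads. Tyms fell by 2.10 on the log2 scale (SE 0.32, adjusted p = 0.000804), from 1042, 529 and 1148 scaled reads in LE to 205, 215 and 181 in GE. The number of genes that passed was 6 after quantile normalization, 12 with DESeq2, 13 without wild-type GE library 1 and 11 without wild-type GE library 2, with Tyms lower and all others higher throughout. Quantile normalization moved the median of all genes from 1.36 to 0.77 and that of the 20 genes from 1.67 to 0.83, and DESeq2 moved them to 0.69 and 1.07. The share of calls that were higher in GE, over all genes, was 58.3% and fell to 47.5% with DESeq2.

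Stromal markers moved with this comparison. They summed to 50226, 99770 and 33937 in wild-type GE libraries 1, 2 and 3 and to 369, 7720 and 2461 in LE, over 7 of 9 listed. GE library 2, with the highest stromal sum, was the highest for 14 of the 20 cell cycle genes, and library 3, with the lowest, was the lowest for 14. In wild-type LE, libraries 1 and 2, with the lowest and the highest stromal sum, were each the highest for 9 of the 20 genes. Markers of other cell types were also higher in GE but followed other library orders. In GE libraries 1, 2 and 3 the leukocyte markers summed to 3397, 3002 and 4503 (776 to 1400 in LE, 3 of 7 listed), the endothelial markers to 2906, 2391 and 3944 (173 to 215 in LE, 6 of 6) and the smooth muscle markers to 2734, 4850 and 4878 (81.6 to 230 in LE, 5 of 6). Library 2, highest for most cell cycle genes, was the lowest for the leukocyte and endothelial sums. The part of stromal or other RNA in the GE values was not tested.

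U-OEx LE values can be read beside wild-type GE on the deposited scale, without a test. All 20 genes, Tyms included, were higher in every U-OEx LE library than in every wild-type GE library, as were 32.5% of 6012 genes listed in both. For Mki67 the means were 3789 ± 479 and 229 ± 39.8, and for Cdk1 1060 ± 148 and 60.1 ± 12.8 (SD, n = 3).

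**Figure D3:**
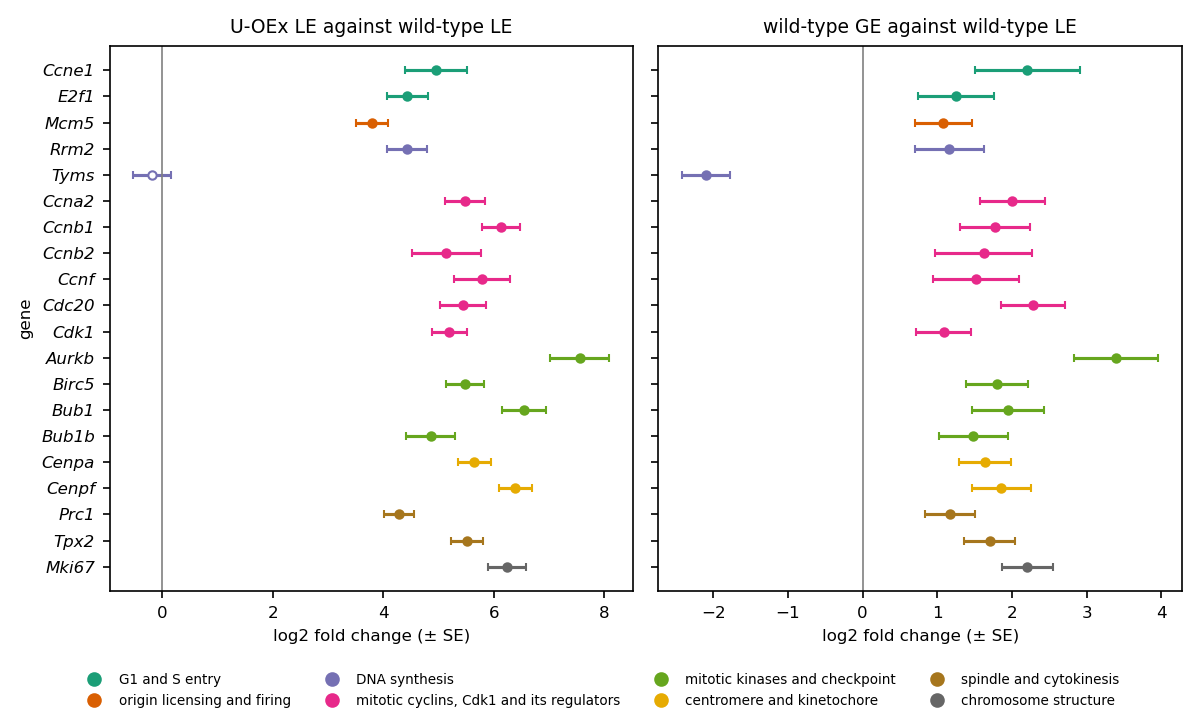
Log2 fold change with its standard error for each of the 20 genes, U-OEx LE against wild-type LE (left) and wild-type GE against wild-type LE (right), which share the wild-type LE libraries. Colours give the role, filled points passed the test, and Tyms is the open point on the left (-0.19) and the lone negative on the right (-2.10).

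The E-OEX tables held 3 of the genes that wild type also listed, and 2 of these were higher in E-OEX LE than in wild-type LE. Cenpa had 22, 40 and 28 scaled reads in wild-type LE and 1807, 2190 and 692 in E-OEX LE. Ccnf had 3, 15 and 10 and then 782, 1236 and 421. E-OEX LE library 3 was the lowest of its group for both, and still far above every wild-type library. Such a gap without overlap, with E-OEX LE the higher, was seen for 15.1% of all genes tested. The log2 fold change was 5.38 for Cenpa (SE 0.55) and 6.20 for Ccnf (SE 0.67), both at limma adjusted p = 0.00144, while limma called 10.7% of all 2600 genes tested and 5.12% as higher. Cenpa and Ccnf were listed as higher in GE in wild type and as higher in LE in E-OEX. That selection favours a higher value in E-OEX LE than in wild-type LE, so the adjusted p is not independent of it. Tyms had 1042, 529 and 1148 and then 1046, 1677 and 1112, with overlapping groups and a log2 difference of 0.37 (95% interval -0.73 to 1.47, limma adjusted p = 0.675). These values use the same wild-type LE libraries as the U-OEx comparison, where Cenpa, Ccnf and Tyms had log2 fold changes of 5.65, 5.79 and -0.19.

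In GE the same pair of genes was higher in E-OEX than in wild type. Cenpa had 96, 96 and 87 scaled reads in wild-type GE and 1097, 297 and 386 in E-OEX GE, and Ccnf had 26, 27 and 22 and then 603, 175 and 149. All 3 E-OEX GE libraries were above wild type, and library 1 was the highest by a wide margin. Groups lay apart in this direction for 18.6% of all genes tested. The log2 fold change was 1.96 for Cenpa (SE 0.47, limma adjusted p = 0.0154) and 2.82 for Ccnf (SE 0.53, limma adjusted p = 0.00464), with 23.5% of all 2851 genes called and 9.72% as higher. Tyms had 205, 215 and 181 and then 1088, 325 and 315, with library 1 again the highest. Its groups overlapped after rescaling, and it did not pass (log2 0.80, SE 0.48, limma adjusted p = 0.276). On the deposited scale the median of all genes was 0.50 in place of 0.05, the share of calls that were higher was 71.6% in place of 41.3%, and the same 2 genes passed. For LE that share was 58.6% in place of 48.0%.

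The difference between these effects was tested as an interaction of genotype and epithelium. The E-OEX effect was smaller in GE than in LE, with a log2 difference of -3.12 for Cenpa (SE 0.75, limma adjusted p = 0.0182) and -3.08 for Ccnf (SE 0.90, limma adjusted p = 0.0455). Limma called 10.7% of 2933 genes here and 4.91% with a negative sign, and Tyms did not pass (0.72, SE 0.67, limma adjusted p = 0.567). A gene could enter this test only if both genotypes' tables listed it, each with an absolute log2 ratio between GE and LE of at least 0.998. A gene whose GE and LE order is opposite in the genotypes, as for Cenpa and Ccnf, therefore differs by the sum of those ratios through the selection of the lists, and the adjusted p is not independent of it. The share of calls with a positive sign was 54.3%, with 42.9% after quantile normalization and 66.9% with DESeq2. Neither gene passed without E-OEX LE library 2, E-OEX GE library 2 or E-OEX GE library 3, and neither passed after quantile normalization (adjusted p = 0.115 for Cenpa and 0.166 for Ccnf). Only Cenpa passed with edgeR (adjusted p = 0.0361), with a pseudocount of 0.1, with the replicate block or without any of 6 other libraries (wild-type LE 1 and 3, wild-type GE 1, 2 and 3, and E-OEX LE 1).

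Within E-OEX, all 4 listed genes were lower in GE than in LE, over a list selected for a GE and LE difference. Kif23, a motor that acts in the last step of cell division, had 1938, 2770 and 807 scaled reads in LE and 1351, 176 and 201 in GE. Its log2 difference was -2.16 (SE 0.81, limma adjusted p = 0.0333), and those of Tyms, Ccnf and Cenpa were -1.37, -1.56 and -1.48 (limma adjusted p = 0.0353 to 0.0458). The groups overlapped for all 4 genes, because GE library 1 was high and, for 3 of them, LE library 3 was low. Limma called 91.6% of all 4903 genes, 30.1% as lower in GE, and 89.9% of all genes did not overlap. The share of calls that were higher in GE was 67.2%, and 46.2% to 53.7% with quantile normalization, edgeR or DESeq2.

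None of the 4 passed without E-OEX LE library 1, E-OEX LE library 2, E-OEX GE library 2 or E-OEX GE library 3, and the signs stayed negative. In wild type the order was the opposite for Cenpa (22, 40 and 28 in LE, 96, 96 and 87 in GE) and Ccnf. E-OEX GE library 1 also had the highest sum of luminal markers in its group, at 1876 against 1254 and 1010. Stromal markers summed to 79661 to 95021 in E-OEX GE and 505 to 2730 in E-OEX LE (9 of 9 listed), and smooth muscle markers to 14173 to 17508 and 17.3 to 68.5 (6 of 6). The part of these cells in the GE values was not tested.

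**Figure D4:**
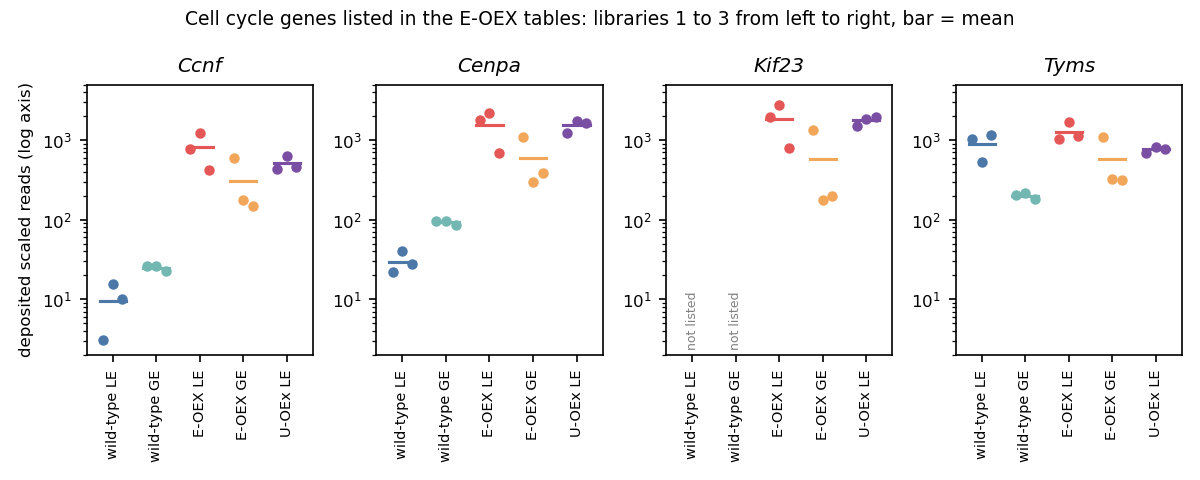
Deposited scaled reads (log axis) of Ccnf, Cenpa and Tyms in the 5 groups and of Kif23, which has no wild-type value, in the 3 groups that list it, libraries 1 to 3 from left to right with the group mean as a bar. E-OEX GE library 1 is the highest of its group for all 4 genes, for example 1351 against 176 and 201 for Kif23.

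U-OEx LE and E-OEX LE, both Notch1-overexpressing, were compared for the 4 genes listed in both. Kif23 had 1498, 1869 and 1970 scaled reads in U-OEx LE and 1938, 2770 and 807 in E-OEX LE, and Cenpa had 1226, 1737 and 1657 and 1807, 2190 and 692. The groups overlapped for both genes and for Ccnf. No gene passed limma's test, and Tyms had an unadjusted p = 0.0380 (limma adjusted p = 0.127), while 15.0% of 4276 genes were called. No gene passed with edgeR or DESeq2 either. The log2 differences, U-OEx minus E-OEX, had 95% intervals of -1.07 to 1.03 for Kif23, -1.04 to 1.02 for Cenpa, -1.71 to 0.33 for Ccnf and -1.62 to -0.06 for Tyms. Tyms was lower in every U-OEx LE library (698, 830 and 777) than in every E-OEX LE library (1046, 1677 and 1112), as were 18.1% of all genes tested. Genes could be tested here only if the E-OEX tables listed them, which selected them for a GE and LE difference. All 4 were higher in E-OEX LE than in E-OEX GE, so the reference was their higher group through that selection. That favours lower values in U-OEx LE, and the p values are not independent of it. All genes tested include genes selected as higher in E-OEX GE, so their shares are not a like background. A p above the threshold does not show that the groups were alike.

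Further cell cycle genes, from lists chosen by function, were counted beside the 42. Of 26 further mitosis genes tested in U-OEx LE against wild-type LE, 23 were higher and none was lower, with a median log2 fold change of 4.96. Over all 5950 genes tested there, 29.1% were called higher and 27.8% lower. The 5 with the smallest adjusted p were Kif2c, a microtubule-depolymerizing motor (6.10), Racgap1, a cytokinesis factor (4.73), Aspm, a spindle pole protein (5.52), Iqgap3 (7.03) and the condensin subunit Ncapg (6.71), at limma adjusted p of 1.05e-05 to 1.74e-05. Of 8 further replication genes, 6 were higher and 1 was lower, against the same 29.1% and 27.8% of all genes. Those with the smallest adjusted p were Clspn, the checkpoint mediator claspin, at a log2 fold change of 6.27, Pole, a subunit of the leading-strand polymerase, at 4.88, Uhrf1, which maintains DNA methylation after replication, at 4.41, Cdc7, the kinase that fires origins, at 3.54, and the ligase Lig1 at 2.17. The lower gene was Rpa3, a subunit of the protein that coats single-stranded DNA (-0.77), named after its value was seen. Both lists were tested through the same selection, so their adjusted p values are not independent of it and the all-gene shares are not a like background. Wild-type LE was the lower group only for genes higher in wild-type GE. Lig1 and Rpa3 were lower in wild-type GE than in wild-type LE (log2 -1.21 and -1.53), so the reference was their higher group. The other further genes named so far were higher in wild-type GE. In wild-type GE against LE, 20 of the 26 mitosis genes were higher and 5 lower. Of the 8 replication genes, 5 were higher and 3 lower. Over all genes of that selected list, 56.6% were called higher and 40.5% lower. In U-OEx LE against E-OEX LE, 1 of 4 further mitosis genes was lower and none higher, where 15.0% of all genes were called. It was Kif14 (-1.19, limma adjusted p = 0.0408). Kif14 was listed as lower in E-OEX GE than in E-OEX LE (log2 -2.82), so the reference was its higher group through that selection. The adjusted p is not independent of it.

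Of 13 regulators and inhibitors in U-OEx LE against wild-type LE, 8 were higher and 3 were lower. Over all genes 29.1% and 27.8% were, so the share lower was near that of all genes. Cdkn1c, which encodes the kinase inhibitor p57, had 954, 4027 and 2518 scaled reads in wild-type LE and 40, 28 and 41 in U-OEx LE. It also had 94, 91 and 119 in E-OEX LE, so all 6 Notch1-overexpressing LE libraries lay below all 3 wild-type ones. Cdkn1c fell by 5.86 on the log2 scale in U-OEx LE (SE 0.47, limma adjusted p = 3.51e-05) and by 4.56 in E-OEX LE (SE 0.53, limma adjusted p = 0.00157), against the same wild-type libraries. The other 4 with the smallest adjusted p rose: E2f8, a repressor of the E2F family (6.10), the phosphatase gene Cdkn3 (5.38), and the Cdk4 and Cdk6 inhibitors Cdkn2c (2.36) and Cdkn2b (2.91). These genes were tested through the same selection of the wild-type lists. E2f8, Cdkn3 and Cdkn2c were higher in wild-type GE than in wild-type LE (log2 2.48, 1.84 and 1.80), so the reference was their lower group. Cdkn2b was lower in wild-type GE (log2 -3.15), so the reference was its higher group. The other lower genes, named after their values were seen, were Ccng1, cyclin G1 (-2.24), and Rbl2, the pocket protein p130 (-1.13).

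Of the 4 regulators tested in E-OEX GE against wild-type GE, 2 were higher and 1 was lower, where 23.5% of all genes were called, 9.72% as higher and 13.8% as lower. The Cdkn1c values were 148, 191 and 118 scaled reads in wild-type GE and 237, 458 and 354 in E-OEX GE, and the difference did not pass the test (log2 0.71, SE 0.31, limma adjusted p = 0.128). The interaction was 5.56 (SE 0.67, limma adjusted p = 0.000859), the opposite sign to Cenpa and Ccnf, where 10.7% of all genes were called. Cdkn1c also had the opposite GE and LE order in the genotypes, with log2 differences of -3.83 in wild type and 1.74 in E-OEX. Its interaction and its falls against wild-type LE are therefore not independent of the selection of the lists. Cdkn1a, the inhibitor p21, had 141, 242 and 164 in wild-type GE and 871, 1136 and 670 in E-OEX GE, a rise of log2 1.83 (SE 0.31, limma adjusted p = 0.00273). Myc, a transcription factor that drives growth, rose by log2 1.33 and Gadd45a, a stress gene, fell in the same comparison. In E-OEX LE against wild-type LE, Cdkn1a and Myc differed by log2 2.36 and 1.80 and did not pass (limma adjusted p = 0.0505 and 0.0851). Their interactions were -0.24 and -0.18 and did not pass either (limma adjusted p = 0.910 and 0.928).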

How the data were processed

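RNA sequencing values of 15 libraries were used as the authors deposited them. Each deposited number is a signal, namely reads scaled by 1 factor per library: every value lay within 0.01 of a whole multiple of its library's step, which gave back whole reads. Libraries were made with the NEBNext Ultra RNA kit from total RNA, per the labels' protocols, and the builds GRCm38 and mm10 are named in the submitters' processing notes. The aligner, counter and scaling method are not given in the sources used here. Within a genotype, deposited values were tested; between genotypes, recovered reads of shared genes were rescaled with TMM (edgeR 4.0.16), a method that takes most of these genes as unaltered. Genes whose mean reached 1 were tested with limma 3.58.1 (R 4.3.3), two-sided, after a log2 transform with a pseudocount of 1, with Benjamini-Hochberg adjustment over all genes of each of 7 comparisons and a threshold of 0.05. Fold changes on this scale understate the change of low genes. The fit was tested on simulated counts. Alternatives were another pseudocount (0.1), other filters (none, 10), quantile normalization, edgeR and DESeq2 1.42.0 on recovered reads, 1 fit over all groups, a replicate block, deposited values and leaving out each library. Groups and replicate numbers came from the sample titles. All pairs of replicates within a group differed by a chi-square of 18.3 to 205 per degree of freedom, so no library repeats another. Symbols of all 42 genes matched GENCODE M21, whose exon lengths were used, and promoters are RefSeq (GRCm38.p6). The genes, gene lists and marker lists were chosen with earlier results of these data known. All 42 genes are accounted for, and of each further list at most 5 genes per comparison are named, those with the smallest adjusted p, beside the lower genes Rpa3, Ccng1 and Rbl2, which were named after their values were seen.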

Additional observations from a re-analysis of the deposited data

Results flagged for a closer look

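The effect of the E-OEX genotype differed between the epithelia by an interaction test for 2 of the 3 genes that could be tested, where 10.7% of all 2933 genes were called and 4.91% with a negative sign. For Cenpa, the histone variant of centromeres, the change from wild type to E-OEX was smaller in GE than in LE, with a log2 difference of -3.12 (limma adjusted p = 0.0182). For Ccnf, cyclin F, it was -3.08 (limma adjusted p = 0.0455). Over 20 alternatives Ccnf no longer passed in 13 and Cenpa in 4, with adjusted p of up to 0.166 and 0.115, both after quantile normalization. Ccnf did not pass with edgeR (adjusted p = 0.0972) or with the replicate block (0.0568). Both genes had the opposite GE and LE order in the genotypes, and the tables list only genes with an absolute log2 ratio of at least 0.998 between GE and LE, so such a gene differs through the selection of the lists and the adjusted p is not independent of it. Both genes were higher in E-OEX than in wild type in both epithelia, in 3 of 3 libraries of each group. Stromal markers summed to 79661 to 95021 scaled reads in E-OEX GE and 505 to 2730 in E-OEX LE, and the part of these cells in the difference was not tested.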

How the results depend on the processing

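The count of cell cycle genes called was 19 in U-OEx LE against wild-type LE, 2 in each E-OEX against wild-type comparison and 0 in U-OEx LE against E-OEX LE, and it was within 1.5 times of that under every alternative run. Leaving out single libraries gave 19 to 20, 2 and 0. In wild-type GE against LE the count of 20 was 6 after quantile normalization, 12 with DESeq2 and 11 to 18 without single libraries. In E-OEX GE against LE the count of 4 was 2 with a pseudocount of 0.1 and 0 to 4 without single libraries. The interaction count of 2 was 1 with a pseudocount of 0.1, 0 after quantile normalization, 1 with edgeR, 1 with the replicate block and 0 to 2 without single libraries. The cause was not tested, except that leaving out a library leaves fewer samples. Signs turned for 3 genes near 0. Without single libraries Tyms ran from -0.052 to 0.61 in E-OEX LE against wild-type LE and from -0.57 to 0.019 in U-OEx LE against wild-type LE, and in U-OEx LE against E-OEX LE Kif23 ran from -0.51 to 0.41 and Cenpa from -0.51 to 0.35. In that comparison Kif23 and Cenpa were 0.16 and 0.19 after quantile normalization, 0.22 and 0.23 in 1 fit over all groups, and 0.12 and 0.12 on the deposited scale. Same-numbered libraries correlated in their deviations from group means by -0.28 to 0.19 over 18 pairs. These low values showed no pairing by number, but they cannot exclude that same-numbered libraries came from one animal. With the number as a replicate block the counts were 19, 2, 2, 0, 19, 4 and 1 in the order named above, with Rrm2 (wild-type GE against LE, adjusted p = 0.0616) and Ccnf (interaction, 0.0568) no longer called. Over all genes, E-OEX LE against wild-type LE called 277 genes, 56 to 323 without single libraries and 105 to 631 otherwise; depth of the wild-type and E-OEX libraries beyond their lists is unknown. With 3 libraries a group, only differences well above the spread can pass.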
